A study of Rattus norvegicus with 10 samples.

Results

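Mast cells are granulated cells of the airway wall, the vessel walls and the pleura, and 9 genes that mark them were followed here in rat lung. The genes were taken by name from the deposited table of 22250 genes: the granule proteases Cpa3, Cma1, Mcpt1, Tpsab1 and Tpsb2, the IgE receptor chains Ms4a2 and Fcer1a, the growth factor receptor Kit and the histamine-forming enzyme Hdc. All 9 were found, each on 1 row, and 8 passed the filter on low counts. Messenger RNA of rat lung was sequenced in 10 libraries, of which 5 carry the title MOD and 5 the title XBS. The series' design text describes rats with neutrophilic asthma, induced with lipopolysaccharide, a component of bacterial walls, together with the egg allergen ovalbumin, and given a formula abbreviated SP. What MOD and XBS stand for, and which of them received SP, the labels leave unsaid, so the comparison is XBS over MOD and no more. Beside lung tissue, each label also lists 16HBE, a human bronchial epithelial cell line, although the identifiers in the table are those of rat genes. No strain, age, sex, dose or sampling time accompanies the labels. Nor do they say whether replicates are separate rats, and a p-value here speaks only of the scatter among libraries, part of which may be technical.

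A mast cell is armed when its high-affinity IgE receptor binds IgE. Allergen then crosslinks the receptors, and the cell releases histamine and proteases from its granules within minutes and makes lipid mediators and cytokines later. The receptor has an alpha chain that binds IgE (Fcer1a), a beta chain that amplifies the signal (Ms4a2) and a shared gamma chain that carries the signal (Fcer1g). Rodent mast cells fall into a connective tissue type, found around vessels, airways and serosal surfaces, and a mucosal type, found near epithelia, and the types differ in the proteases they store. Ovalbumin with an adjuvant is a classical way to raise IgE in rodents.

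No member differed between the groups beyond the spread of the libraries, and the spread itself was large. Of the 8 members tested, 0 passed an adjusted p of 0.05 by edgeR's quasi-likelihood test, as XBS over MOD, where 0.0768% of all 14320 genes tested passed (0.0279% higher and 0.0489% lower in XBS). At an adjusted p of 0.1 it was again 0 of 8, against 0.468%, and limma voom with sample weights gave 0 of 8, against 0.461%. At an unadjusted p under 0.05 the count was also 0 of 8, against 13.2% of all genes tested, and DESeq2 gave 0 of 8, against 2.34%. The groups overlapped for all 9 members, and 2.74% of all genes tested had groups that did not overlap (1.61% higher and 1.13% lower in XBS). Members had a median log2 fold change of 0.03 (8 genes), beside 0.01 for all genes tested. A single XBS library, XBS 1, stood lowest of the 10 for 6 members. The other 9 libraries also differed, with Cpa3 from 4.59 to 18.8 CPM among them, and proteases differed in which libraries were high.

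The promoters of Cpa3 and of 2 genes that followed it across libraries (Mcpt1 and Fcer1a) and of 2 that followed another pattern (Cma1 and Tpsab1) are shown first. RefSeq (GRCr8) gave a window of 250 bases before to 50 bases after the start for 8 of the 9 members. The windows are chr2:104673188-104673487 (Cpa3), chr13:88224630-88224929 (Fcer1a), chr15:33390084-33390383 (Cma1) and chr10:14867253-14867552 (Tpsab1) on the minus strand, and chr15:33841356-33841655 (Mcpt1) on the plus strand. Sequences run 5′ to 3′, and capitals mark forms of the site bound by GATA factors, on either strand. The forms searched were AGATAA with its variant ending in G, which is AGATAG, and the versions of both that start with T, namely TGATAA in the first case and in the second case TGATAG. The factor Gata2 is one that mast cells need.
Cpa3: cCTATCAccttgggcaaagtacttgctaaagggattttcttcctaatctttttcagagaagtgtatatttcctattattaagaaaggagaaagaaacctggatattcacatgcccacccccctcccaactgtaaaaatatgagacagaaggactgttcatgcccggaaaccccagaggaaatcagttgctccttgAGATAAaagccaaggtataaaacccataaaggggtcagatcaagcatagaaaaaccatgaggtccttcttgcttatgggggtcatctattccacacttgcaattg
Mcpt1: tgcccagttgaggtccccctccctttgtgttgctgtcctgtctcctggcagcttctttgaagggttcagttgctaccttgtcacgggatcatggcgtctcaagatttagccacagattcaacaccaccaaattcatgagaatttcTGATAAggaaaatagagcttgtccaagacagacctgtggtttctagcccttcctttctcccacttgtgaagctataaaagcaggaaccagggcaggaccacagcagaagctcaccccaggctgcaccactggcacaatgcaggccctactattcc
Fcer1a: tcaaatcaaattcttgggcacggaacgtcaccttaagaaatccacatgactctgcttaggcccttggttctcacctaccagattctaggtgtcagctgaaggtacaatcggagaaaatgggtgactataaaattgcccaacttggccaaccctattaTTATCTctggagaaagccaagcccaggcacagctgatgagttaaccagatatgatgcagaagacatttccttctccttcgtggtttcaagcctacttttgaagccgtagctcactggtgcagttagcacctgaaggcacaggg
Cma1: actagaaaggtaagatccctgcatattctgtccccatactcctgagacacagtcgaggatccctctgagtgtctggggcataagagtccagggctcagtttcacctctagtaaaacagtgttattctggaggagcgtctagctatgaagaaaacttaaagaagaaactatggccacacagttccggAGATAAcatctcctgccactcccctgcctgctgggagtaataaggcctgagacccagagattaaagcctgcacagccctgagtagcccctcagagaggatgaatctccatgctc
Tpsab1: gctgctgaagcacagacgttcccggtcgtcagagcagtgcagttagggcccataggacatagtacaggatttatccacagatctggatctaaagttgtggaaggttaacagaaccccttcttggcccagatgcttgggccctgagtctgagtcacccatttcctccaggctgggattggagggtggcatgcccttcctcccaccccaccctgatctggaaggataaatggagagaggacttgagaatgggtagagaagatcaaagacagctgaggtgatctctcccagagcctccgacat
Cpa3 held 2 matches, of which the nearer began 55 bases before the start, and Mcpt1, Fcer1a and Cma1 held 1 each, 105, 93 and 64 bases before it. Tpsab1 held 0, as did Tpsb2, Kit and Hdc, whose windows are not shown. Tpsb2 also followed Cpa3 across libraries (r = 0.933), so a match did not go with that pattern in every gene. Matches were found in 4 of 8 members' windows and in 30.3% of 33469 windows of the same length, and 7.94% held at least 2. A match is a run of letters, not a measured binding site.

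Cpa3 encodes carboxypeptidase A3, a granule enzyme made almost only by mast cells and basophils. It lies on chromosome 2 from 105016626 to 105047984 on the minus strand by the deposited coordinates, for which no rat build is named. In MOD 1 to 5 it stood at 4.59, 17.5, 7.17, 13.1 and 8.64 CPM, the count as a proportion of the normalized library size on the usual CPM scale. In XBS 1 to 5 it stood at 0.658, 13.0, 6.80, 12.4 and 18.8 CPM. XBS 1 was far below every other library and XBS 5 was the highest of all, so that XBS spanned the whole MOD range. On average Cpa3 reached 10.2 ± 5.13 CPM over MOD and 10.3 ± 6.88 CPM over XBS (SD, n = 5). The log2 fold change was 0.02 ± 0.61 (SE), with a 95% interval from -1.33 to 1.37 (edgeR adjusted p = 0.991). Leaving out XBS 1 moved this value to 0.32, and leaving out XBS 5 turned it to -0.31.

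Mcpt1 encodes a mast cell chymase, a serine protease with chymotrypsin-like specificity. In MOD 1 to 5 it stood at 5.52, 14.7, 7.68, 11.4 and 12.0 CPM. In XBS 1 to 5 it stood at 1.64, 15.4, 8.22, 16.6 and 20.4 CPM. XBS 1 was again the lowest library, and 3 XBS libraries (XBS 2, XBS 4 and XBS 5) were above every MOD library. Its log2 fold change was 0.28 ± 0.51 (SE), with a 95% interval from -0.84 to 1.40 (edgeR adjusted p = 0.835). In the table Mcpt1 spans 172 kb of chromosome 15, from 34862266 to 35034622, and this span holds 3 further rows, among them Mcpt1l3 and Mcpt1l4. Those 2 paralogues had 1 to 7 and 1 to 9 counts per library and the remaining row had 0, against 20 to 285 for Mcpt1. RefSeq (GRCr8) gives the names rMCP-I and rMCP-II both as synonyms of Mcpt1, and rMCP-I also as a synonym of Mcpt1l1. The row named Mcpt1 therefore cannot be assigned to the chymase of connective tissue or of mucosal mast cells, and reads of near-identical paralogues may be shared among these rows.

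Tpsb2 encodes beta tryptase, a trypsin-like protease that is stored with heparin as a tetramer. In MOD 1 to 5 it stood at 2.72, 10.3, 4.39, 7.18 and 4.53 CPM. In XBS 1 to 5 it stood at 0.904, 5.03, 5.05, 4.49 and 5.31 CPM. The other 4 XBS libraries lay close together, within the MOD range, and XBS 1 lay below all. On average Tpsb2 reached 5.83 ± 2.97 CPM over MOD and 4.16 ± 1.84 CPM over XBS (SD, n = 5), which gave the most negative log2 fold change of the tested members, -0.48 ± 0.45 (SE), with a 95% interval from -1.46 to 0.50 (edgeR adjusted p = 0.651).

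Cma1 and Tpsab1, the genes of chymase 1 and of a second tryptase, were the scarcest proteases. Cma1 had 24, 44, 8, 58 and 41 counts in MOD 1 to 5 and 10, 28, 43, 30 and 23 counts in XBS 1 to 5. The lowest libraries were MOD 3 (0.585 CPM) and XBS 1 (0.822 CPM), and the highest was MOD 4 (3.86 CPM). For Cma1 the log2 fold change was -0.38 ± 0.45 (SE, edgeR adjusted p = 0.729). Tpsab1 had 4, 15, 2, 31 and 17 counts in MOD 1 to 5 and 5, 7, 16, 2 and 4 counts in XBS 1 to 5, too few for the filter. Tpsab1 averaged 0.956 ± 0.775 CPM over MOD and 0.484 ± 0.362 CPM over XBS (SD, n = 5), and without a filter its log2 fold change was -0.99 (edgeR adjusted p = 0.593). A count of 3, about the limit of detection, corresponds to 0.193 to 0.25 CPM in these libraries, so Tpsab1 in MOD 3 and XBS 4 was below that limit.

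The alpha and beta chains of the IgE receptor were low and moved with each other. Fcer1a had 1.00, 2.60, 1.98, 1.595 and 0.921 CPM in MOD 1 to 5. In XBS 1 to 5 it had 0.411, 2.74, 1.62, 1.65 and 3.08 CPM. XBS 1, with 5 counts, was the lowest, and XBS 5, with 43 counts, the highest. For Fcer1a the log2 fold change was 0.23 ± 0.46 (SE), with a 95% interval from -0.78 to 1.25 (edgeR adjusted p = 0.850). Ms4a2 had 3.66, 5.05, 4.02, 3.86 and 3.40 CPM in MOD 1 to 5, and 2.06, 5.03, 4.45, 3.92 and 6.45 CPM in XBS 1 to 5. The MOD libraries lay close together and XBS again held both the lowest and the highest library, with a log2 fold change of 0.13 ± 0.27 (SE, edgeR adjusted p = 0.852). Across the 10 libraries the log2 CPM of Fcer1a and Ms4a2 had Pearson r = 0.955 and Spearman rho = 0.952, and r = 0.901 over the 9 libraries without XBS 1.

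Kit was also lowest in XBS 1, but only a little (139.7 CPM beside 146.1 CPM in XBS 4), and Hdc was not lowest there. Kit encodes the receptor of stem cell factor, on which mast cells depend, and is also expressed by other lung cells, among them capillary endothelial cells. It had 159.5, 218.5, 166.4, 184.9 and 159.1 CPM in MOD 1 to 5 and 139.7, 224.3, 155.3, 146.1 and 152.4 CPM in XBS 1 to 5. XBS 2 and MOD 2 were the highest, and the other 8 libraries lay between 139.7 and 184.9 CPM. Kit had a log2 fold change of -0.12 ± 0.14 (SE), with a 95% interval from -0.42 to 0.18 (edgeR adjusted p = 0.725). Hdc, which turns histidine into histamine in mast cells, basophils and some other myeloid cells, had 12.4, 9.37, 14.6, 8.97 and 13.4 CPM in MOD 1 to 5. In XBS 1 to 5 it had 12.8, 12.5, 7.34, 15.1 and 12.5 CPM. XBS 1 was unremarkable for Hdc, and XBS 3 was the lowest. Hdc had a log2 fold change of 0.04 ± 0.20 (SE), with a 95% interval from -0.41 to 0.48 (edgeR adjusted p = 0.953).

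**Figure D1:**
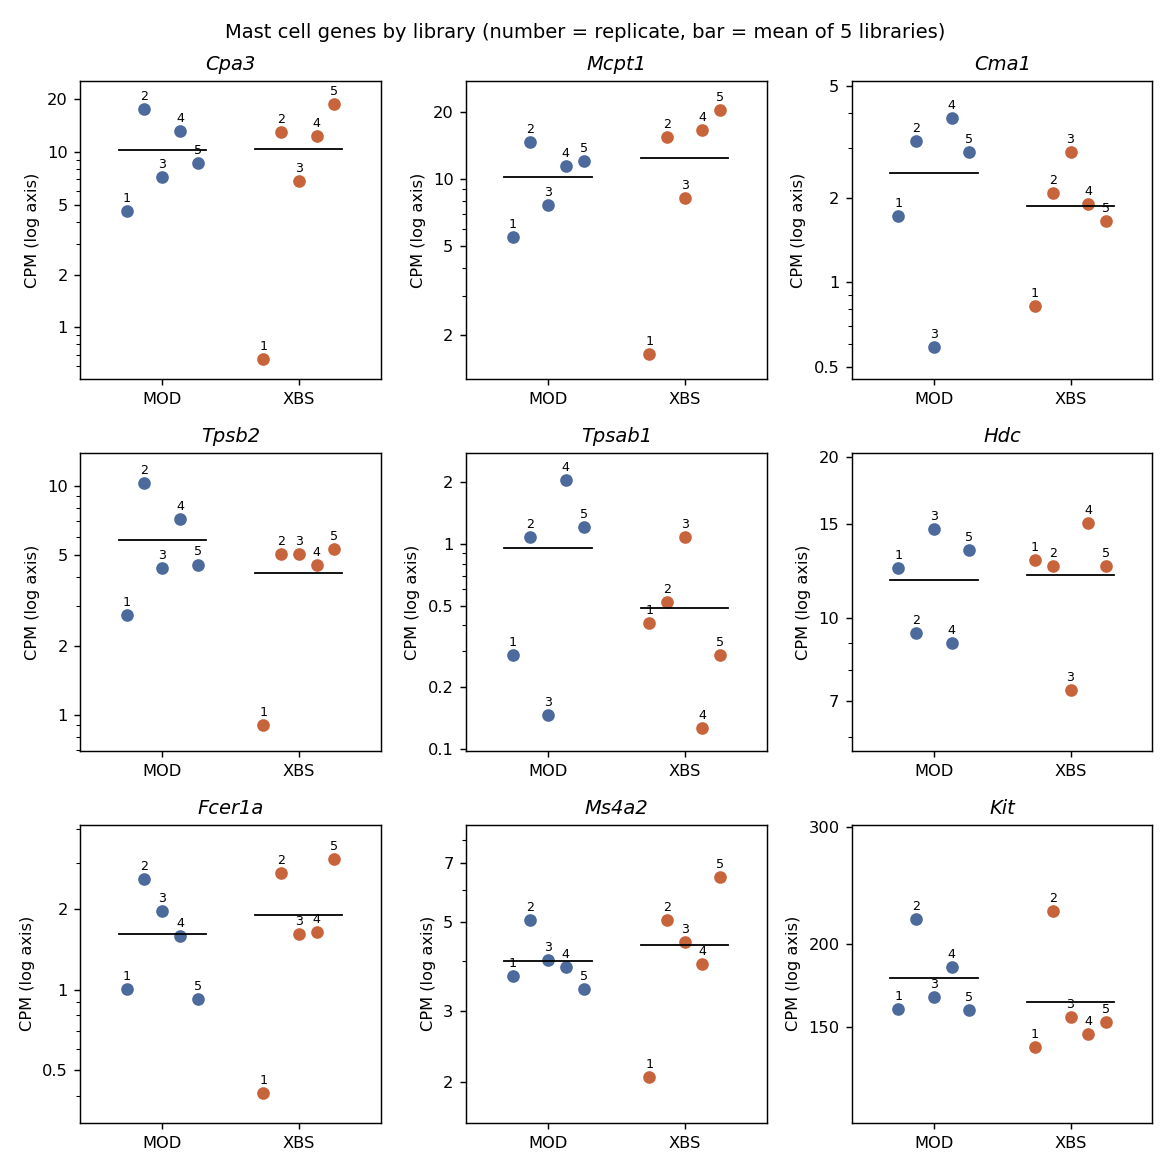
CPM of each of the 9 genes on log axes, 1 point per library with its replicate number, MOD in blue and XBS in orange, and a bar at the mean of the 5 libraries. XBS 1 is the lowest library for Cpa3, Mcpt1, Tpsb2, Fcer1a, Ms4a2 and Kit, and the groups overlap in all 9 plots.

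**Figure D2:**
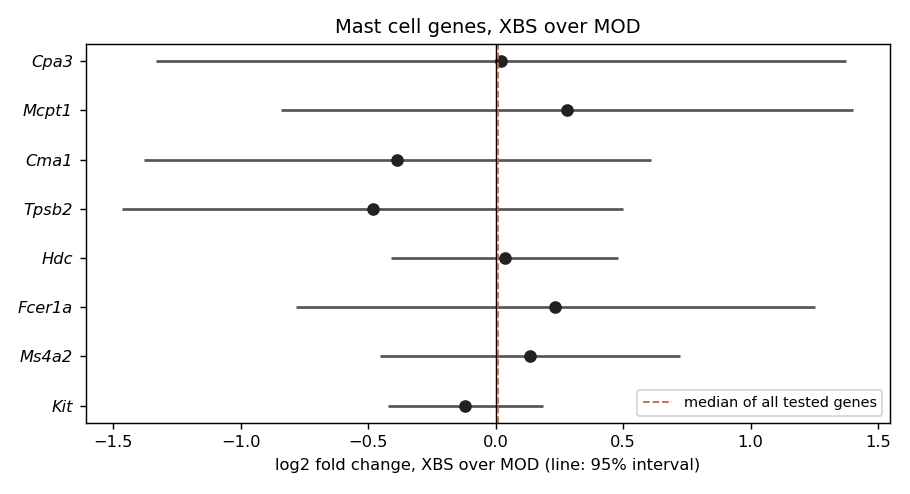
The log2 fold change of XBS over MOD (horizontal axis) for the 8 tested genes, with the 95% interval of the edgeR fit and the median of all tested genes as a dashed line. All 8 intervals include 0, and that of Cpa3 runs from -1.33 to 1.37 while that of Kit runs from -0.42 to 0.18.

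Levels between genes can be compared only per length, for which the deposited FPKM values were used. By the median FPKM over the 10 libraries the order was Kit (30.1), Cpa3 (6.58), Hdc (5.38), Mcpt1 (5.20), Tpsb2 (3.47), Cma1 (2.05), Fcer1a (1.66), Ms4a2 (1.5) and Tpsab1 (0.384). Kit was above Cpa3 in 10 of 10 libraries, Tpsb2 above Cma1 in 9 and Ms4a2 above Tpsab1 in 9. The neighbours Cpa3 and Hdc (6 of 10), Hdc and Mcpt1 (4 of 10), Cma1 and Fcer1a (7 of 10) and Fcer1a and Ms4a2 (6 of 10) changed places between libraries, so their order is not fixed by these data. In XBS 1 the FPKM of Cpa3 was 0.416 and that of Hdc 5.49, whereas in XBS 5 Cpa3 stood at 12.1.

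In 4 of the genes the counting interval of XBS 1 lay below every other library's level. Cpa3 had 8 counts there, a level of 0.658 CPM with an exact Poisson 95% interval of 0.284 to 1.295 CPM that covers counting error only. The lowest of the other 9 libraries had 4.59 CPM, and their median was 18.9 times the XBS 1 level. For Mcpt1 the median of the other 9 libraries was 7.33 times the XBS 1 level, for Tpsb2 5.57 times, for Fcer1a 4.002 times and for Ms4a2 1.96 times. The interval of XBS 1 ended below the lowest of the other libraries for Mcpt1 (1.00 to 2.54 against 5.52 CPM), Tpsb2 (0.451 to 1.62 against 2.72 CPM) and Ms4a2 (1.33 to 3.03 against 3.40 CPM). For Fcer1a the interval (0.133 to 0.959 CPM) reached the lowest of the others (0.921 CPM). For Kit the median of the others was 1.14 times the XBS 1 level, and for Hdc 0.973 times. XBS 1 was not low over the table as a whole: it was the lowest library for 10.8% of all genes tested, against 6.21% to 17.8% for the other 9 libraries. In bulk tissue, fewer mast cells and less of these messengers per cell cannot be told apart.

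**Figure D3:**
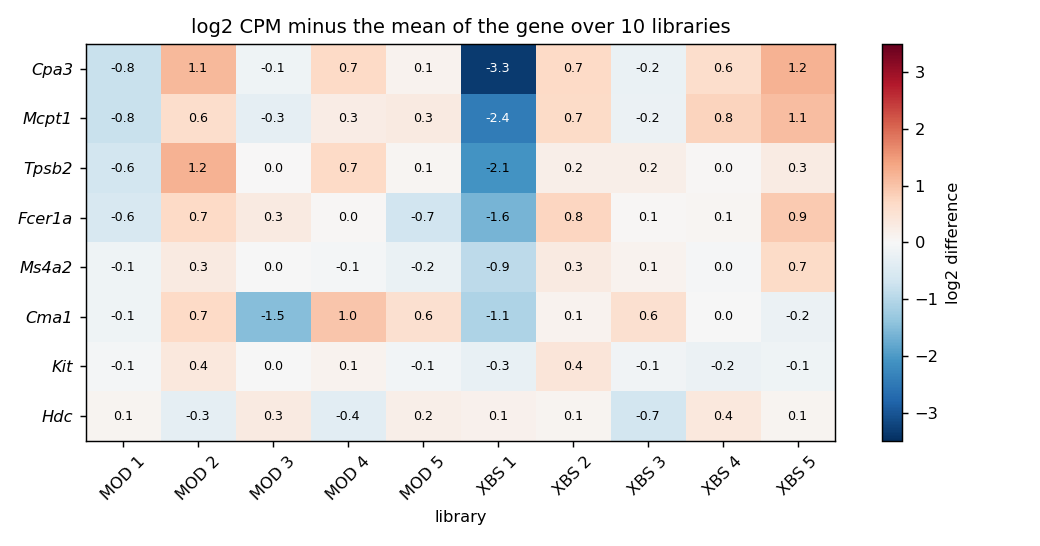
For 8 genes (rows) and 10 libraries (columns), the colour and the printed number give log2 CPM minus the mean of that gene over the libraries. The column of XBS 1 is the lowest for Cpa3 (-3.34), Mcpt1 (-2.44), Tpsb2 (-2.10), Fcer1a (-1.62) and Ms4a2 (-0.93), and Hdc is at 0.14 there.

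The spread within groups was unusual for some members. The SD of log2 CPM within groups was 1.40 for Cpa3 and 1.09 for Mcpt1, larger than for 98.8% and 96.5% of the genes with a mean log2 CPM within 0.5 of theirs. It was 0.884 for Tpsb2 (88.7%), 0.822 for Fcer1a (79.5%) and 0.822 for Cma1 (80.1%), and 0.444 for Ms4a2 (60.3%). The SD was 0.352 for Hdc (72.6%) and 0.237 for Kit (80.7%). The median SD of all genes tested was 0.222.

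Mcpt1, Tpsb2, Fcer1a and Ms4a2 were the members most like Cpa3 from library to library. With Cpa3, log2 CPM over the 10 libraries had r = 0.978 and rho = 0.842 for Mcpt1, r = 0.933 and rho = 0.830 for Tpsb2, r = 0.884 and rho = 0.709 for Ms4a2, and r = 0.883 and rho = 0.733 for Fcer1a. It had r = 0.552 and rho = 0.430 for Cma1, r = 0.528 and rho = 0.394 for Kit and r = -0.149 and rho = -0.164 for Hdc. These coefficients describe the libraries, which the genes share, and carry no test. XBS 1 carried part of them: over the 9 libraries without it, r with Cpa3 was 0.930 for Mcpt1, 0.755 for Tpsb2, 0.738 for Fcer1a, 0.669 for Ms4a2, 0.393 for Kit, 0.299 for Cma1 and -0.0418 for Hdc. Without XBS 1 and MOD 1, the libraries farthest from the median of Cpa3, r was 0.879 for Mcpt1, 0.638 for Ms4a2, 0.628 for Fcer1a and 0.581 for Tpsb2. Pairs that leave out Cpa3 rested more on XBS 1. Mcpt1 and Tpsb2 had r = 0.859 over 10 libraries, 0.534 without XBS 1 and 0.192 without XBS 1 and MOD 1. Tpsb2 and Ms4a2 went from 0.791 to 0.409 without XBS 1, and Tpsb2 and Fcer1a from 0.816 to 0.546. Mcpt1 went from 0.858 to 0.605 with Ms4a2 and from 0.845 to 0.624 with Fcer1a.

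**Figure D4:**
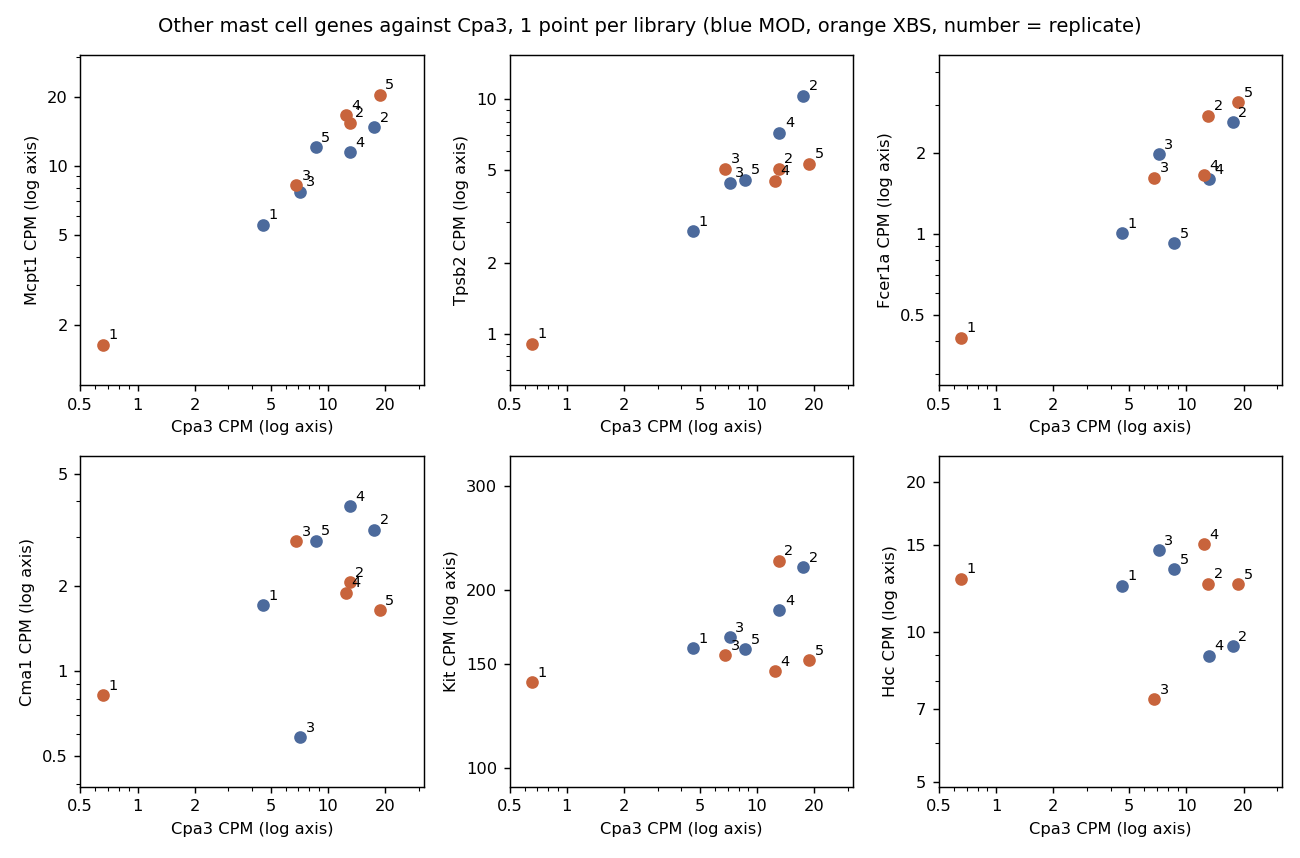
CPM of Mcpt1, Tpsb2, Fcer1a, Cma1, Kit and Hdc (vertical) against Cpa3 (horizontal), log axes, 1 numbered point per library, MOD in blue and XBS in orange. Mcpt1 lies along a line with Cpa3 (r = 0.978, and 0.930 without XBS 1 at the lower left), while Hdc shows no such line (r = -0.149).

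Cma1 and Tpsab1 were closer to another protease gene, Mcpt1l1, than to Cpa3, a pattern chosen after its values were seen. Mcpt1l1, to which RefSeq gives the rat chymase name rMCP-I, had 7, 34, 1, 101 and 31 counts in MOD 1 to 5 and 21, 11, 54, 10 and 12 counts in XBS 1 to 5. It was highest in MOD 4 and lowest in MOD 3, as was Cma1, and XBS 3 was the highest of the XBS libraries for Mcpt1l1, Cma1 and Tpsab1 alike. Over the 10 libraries Mcpt1l1 had r = 0.900 and rho = 0.879 with Tpsab1 and r = 0.771 and rho = 0.770 with Cma1, and Cma1 and Tpsab1 had r = 0.777 and rho = 0.818 with each other. Without XBS 1 these 3 values of r were 0.921, 0.943 and 0.835. With Mcpt1, the r of Mcpt1l1 was 0.014 and that of Tpsab1 0.0957, and with Cpa3 they were 0.0438 and 0.169. Cma1 was less apart, with r = 0.526 for Mcpt1 and 0.552 for Cpa3, or 0.250 and 0.299 without XBS 1. XBS 5 had 285 counts of Mcpt1 beside 12 of Mcpt1l1 and 4 of Tpsab1, and XBS 4 had 263, 10 and 2, while MOD 4 had 172, 101 and 31. Tpsb2 was closest to Cpa3 (r = 0.933), with 0.643 for Cma1, 0.397 for Tpsab1 and 0.225 for Mcpt1l1. Without XBS 1 these values were 0.755, 0.493, 0.568 and 0.569. The ratio of Tpsb2 to Cpa3 counts was 0.525 to 0.612 in the 5 MOD libraries, and in XBS 1 to 5 it was 1.38, 0.386, 0.743, 0.362 and 0.282, so that 3 XBS libraries were below the MOD range and 2 above it. Mcpt1l1 itself did not differ between the groups beyond their spread (log2 fold change -0.64 ± 0.83, SE, edgeR adjusted p = 0.762).

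The 6 tested genes most like Cpa3, by Pearson r of log2 CPM after centring each group on its mean, were Mcpt1 (0.987), St6galnac3 (0.970), Adgrl2 (0.966), Adgrl4 (0.957), Rcn1 (0.945) and Tpsb2 (0.943). Ms4a2 and Fcer1a came at places 25 and 28 of the 14320 genes, Cma1 at 1410, Kit at 1641 and Hdc at 8687. Adgrl4 is an adhesion receptor of endothelial cells, and Adgrl2 a latrophilin of the same receptor class. Adgrl2 stood at 67.2 CPM in XBS 1 and between 105 and 130 CPM in the other 9 libraries, and St6galnac3 at 8.79 CPM against 14.2 to 20.6 CPM. Over the 9 libraries without XBS 1, the group-centred r with Cpa3 was 0.943 for Mcpt1, 0.895 for Adgrl2, 0.848 for St6galnac3, 0.842 for Rcn1, 0.821 for Tpsb2 and 0.794 for Adgrl4. Without centring, r over the same 9 libraries was 0.354 for Adgrl2 and 0.322 for Adgrl4, both of which averaged lower in XBS than in MOD, against 0.853 for St6galnac3.

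Markers of endothelium were therefore set beside the mast cell genes. The 6 tested genes of a capillary list all had negative log2 fold changes (median -0.43), with 0 past the threshold, 3 at an unadjusted p under 0.05 by edgeR, all lower in XBS (5.78% of all genes tested), and 0 by DESeq2. Their summed level was 1785 to 2687 CPM in MOD and 1221 to 1857 CPM in XBS, and XBS 1 had the lowest list score, -0.76. XBS 1 was the lowest library for 4 of the 6 genes, namely Ptprb, Plvap, Sema3c and Ednrb, and XBS 5, the library highest in Cpa3, was the lowest for Gpihbp1 and Aplnr. The list score had r = 0.708 and rho = 0.406 with Cpa3, and r = 0.268 without XBS 1. With Kit it had r = 0.546 and rho = 0.539, and r = 0.401 without XBS 1. Without XBS 2 and MOD 2, the libraries farthest from the median of Kit, r was 0.811. The part of endothelial content in the mast cell values was not tested.

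Basophils share Fcer1a, Ms4a2, Hdc and Cpa3 with mast cells, and most of the markers listed for basophils and eosinophils had few counts. Of 8 basophil and eosinophil genes in the table, 2 passed the filter, Mcpt8l2 and the eotaxin receptor gene Ccr3. The counts of Mcpt8l2 (8 to 61 per library) were not below those of Fcer1a (5 to 43). Mcpt8l2 averaged 2.88 ± 1.22 CPM over MOD and 2.16 ± 1.43 CPM over XBS (SD, n = 5, edgeR adjusted p = 0.740), and Ccr3 3.32 ± 2.23 and 2.25 ± 1.37 CPM (edgeR adjusted p = 0.707). Prss34, a basophil protease, had 0 to 3 counts per library, the eosinophil peroxidase gene Epx 3 to 12, and Prg3 had 0 in all 10 libraries. The summed level of the list was 3.08 to 11.1 CPM in MOD and 2.55 to 9.99 CPM in XBS, and MOD 1 and XBS 1 were the lowest. The list score, which rests on the 2 tested genes, had r = 0.740 with Cpa3, 0.713 without XBS 1 and 0.481 without XBS 1 and MOD 1. Which of these cells gave the receptor transcripts was not tested. The type 2 cytokines Il4, Il5, Il9 and Il13, made by mast cells among others, had at most 6 counts in any library.

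Among other granule genes of mast cells, 0 of 4 tested genes passed the threshold. Among genes of their identity or of signals that act on them, such as Kitlg and Il33, 0 of 13 passed. Serglycin (Srgn), the core protein that holds proteases in the granule but is made by many leukocytes and endothelium, averaged 211 ± 44.4 CPM over MOD and 192 ± 29.1 CPM over XBS (SD, n = 5, edgeR adjusted p = 0.702). Slc18a2, which loads histamine into vesicles, had 9.11 ± 1.83 and 9.87 ± 1.61 CPM (edgeR adjusted p = 0.792). Mcpt4, Ctsg and Tpsg1 had at most 5 counts in any library. Of the second list, Gata2 and Rgs13 had an unadjusted p under 0.05 by edgeR, both lower in XBS, which is 2 of 13 beside 13.2% of all genes tested. Gata2 averaged 181 ± 30.8 CPM over MOD and 131 ± 26.5 CPM over XBS (SD, n = 5), a log2 fold change of -0.47 ± 0.15 (SE, edgeR adjusted p = 0.237). Which lung cells gave the Gata2 transcripts was not tested. Rgs13, which restrains signals of G protein receptors in mast cells, had 7.64 ± 1.28 and 4.93 ± 1.27 CPM, a log2 fold change of -0.63 ± 0.20 (SE, edgeR adjusted p = 0.243). The groups overlapped for both, and neither was called by DESeq2 (adjusted p = 0.0803 and 0.0993). Kitlg, the ligand of Kit, had 427 ± 47.1 and 377 ± 26.1 CPM (edgeR adjusted p = 0.407). Gata1, another factor of mast cells, had 0 or 1 count in every library.

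Genes that carry or restrain the signal of the IgE receptor mostly had positive fold changes, although none passed by edgeR. Inhibitors in the list, such as Inpp5d (log2 fold change 0.26), Ptpn6 (0.12) and Fcgr2b (0.12), were also among the positive ones. Whether signalling itself differed was not tested. Of 24 genes, 0 passed the adjusted threshold, 20 had a positive log2 fold change (51.9% of all genes tested did), and the median was 0.15. At an unadjusted p under 0.05, edgeR gave 11, 10 higher and 1 lower, against 7.40% and 5.78% of all genes tested. DESeq2 called 4 of 24, namely Pik3cd, Lcp2, Syk and Pik3r1, where it called 2.34% of all genes. XBS 2 and XBS 3 had the lowest airway scores (-2.16 and -1.89, against -0.33 to 1.20 elsewhere). Without them the unadjusted count was 5, 4 of them higher, against 11.1% of all genes in that fit, and 17 of 24 were positive. With the airway score as a covariate and all libraries kept, the count was 9, 8 of them higher, against 11.8% of all genes. In that fit 18 of 24 were positive. Leaving out 1 library at a time gave counts of 8 to 11.

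The gamma chain Fcer1g, which monocytes, macrophages and neutrophils also use, had 149, 162, 125, 149 and 149 CPM in MOD 1 to 5 and 219, 251, 248, 157 and 155 CPM in XBS 1 to 5. XBS 1, XBS 2 and XBS 3 were above all MOD libraries and XBS 4 and XBS 5 within their range (log2 fold change 0.49 ± 0.15, SE, edgeR adjusted p = 0.215). XBS 1 was thus high in the gamma chain and lowest in the alpha and beta chains. Pik3cd, the leukocyte form of phosphoinositide 3-kinase, had 68.8 to 91.6 CPM in MOD and 98.9 to 140.8 CPM in XBS, groups that did not overlap (log2 fold change 0.53 ± 0.11, SE, edgeR adjusted p = 0.106). Lcp2, the adaptor SLP-76, had 49.8 to 54.4 and 60.2 to 85.4 CPM (log2 fold change 0.45 ± 0.10, SE, edgeR adjusted p = 0.106). Pik3r1, a regulatory subunit of the same kinase, was lower, at 144 to 217 and 128 to 140.4 CPM (log2 fold change -0.43 ± 0.10, SE, edgeR adjusted p = 0.129). Syk, the kinase that docks on the gamma chain, had 80.7 ± 10.1 and 103.9 ± 11.6 CPM (SD, n = 5, edgeR adjusted p = 0.197). These genes act in most leukocytes. The 9 tested neutrophil markers had a median log2 fold change of 0.41 with 0 past the threshold, 0 at an unadjusted p under 0.05 by edgeR and 0 by DESeq2. With the untested Ltf, the 10 markers summed to 249 to 459.5 CPM in MOD and 250.2 to 758 CPM in XBS. Over the 10 libraries the signalling score had r = -0.138 and rho = -0.127 with Cpa3, and the part of other leukocytes in it was not tested.

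**Figure D5:**
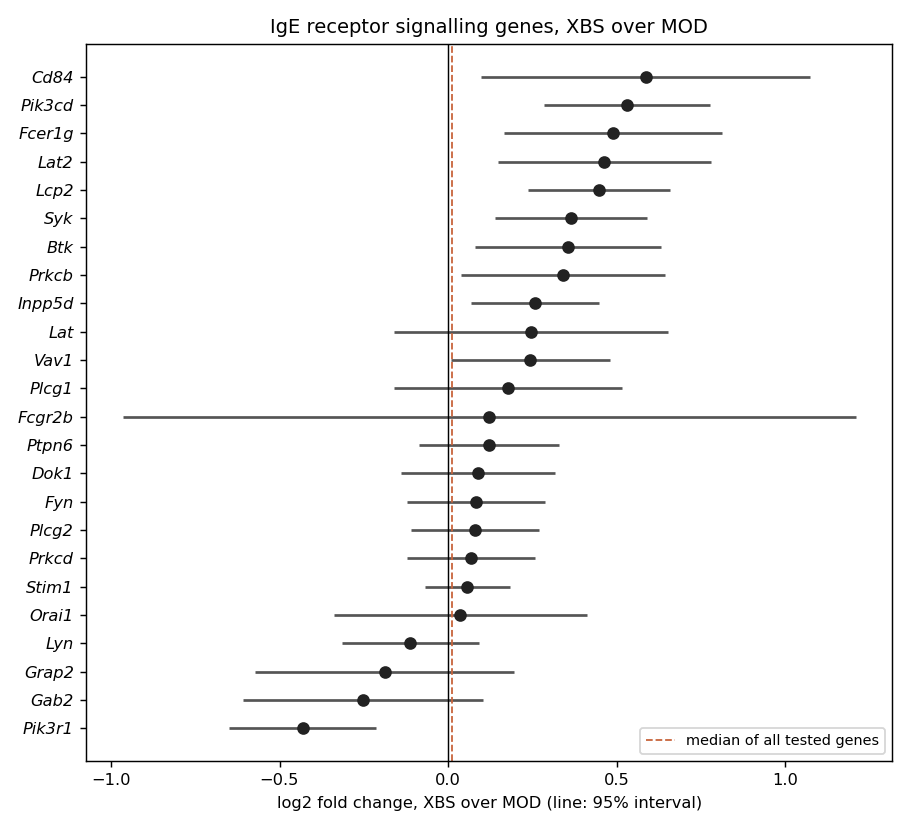
The log2 fold change of XBS over MOD with its 95% interval for 24 genes of IgE receptor signalling, ordered by value, with the median of all tested genes as a dashed line. The values run from -0.43 (Pik3r1) to 0.59, and 20 of 24 points are above 0.

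Histamine breakdown and response genes gave little. Aoc1, which degrades histamine outside cells, averaged 53.9 ± 25.8 CPM over MOD and 77.0 ± 28.0 CPM over XBS (SD, n = 5, edgeR adjusted p = 0.495). The receptor gene Hrh1 had 1.29 ± 0.34 and 0.936 ± 0.434 CPM (edgeR adjusted p = 0.584), and Hrh2, Hrh3 and Hrh4 had at most 13 counts in any library. Of the 6 tested genes of this list, 0 passed the threshold, 0 had an unadjusted p under 0.05 by edgeR and 0 passed by DESeq2.

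Markers of other tissue parts were read for the same libraries. The 8 airway markers in the table summed to 7783 to 12180 CPM in MOD and 2339 to 9117 CPM in XBS. Most of this was the club cell gene Scgb1a1 (6666 to 10840 CPM in MOD and 1934 to 7761 CPM in XBS). Airway transcripts were thus present in every library. The 7 tested airway markers had a median log2 fold change of -0.31. Airway markers had r = 0.162 with Cpa3 and 0.412 with Hdc. The scores of the other granule genes and of the mast cell identity genes had r = -0.706 and -0.763 with Hdc. Without XBS 1 these were -0.703 and -0.764. Among the tested members, r with Hdc ran from -0.636 (Cma1) to -0.0383 (Mcpt1). Smooth muscle markers, of cells near which mast cells lie, had a median log2 fold change of 0.30 and r = 0.295 with Cpa3, or 0.662 without XBS 1. Mesothelial markers had a median of 0.20 and r = -0.466 with Cpa3. Dendritic cell, innate lymphoid, cardiac muscle and thymic or lymphoid markers had medians of 0.23, 0.19, 0.17 and 0.50. By edgeR, 0 genes of these 7 lists passed the threshold, and 3 had an unadjusted p under 0.05, of which 1 each was a dendritic, an innate lymphoid and a mesothelial marker (13.2% of all genes tested). DESeq2, which called 2.34% of all genes, called 1 of them, the mesothelial and epithelial keratin Krt19, which was lower in XBS (DESeq2 adjusted p = 0.0277). Their part in the mast cell values was not tested.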

How the data were processed

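Each row of the table the authors deposited gives, per the file headers, a raw count and an FPKM for every library with the gene's length. The deposited FPKM equals the count over length and library total. The submitters' processing notes list hg38, GRCh38 and mm10 as builds, yet the identifiers are rat. Aligner, counter, strand setting and rat build: not given in the sources used here. Per the labels' protocols, RNA was extracted with Trizol and mRNA purified.

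Counts (11998979 to 15518929 per library) passed through filterByExpr with a minimum count of 10 and a minimum total of 15, and were normalized by TMM and fitted with the quasi-likelihood model of edgeR 4.0.16 in R 4.3.3, with Benjamini-Hochberg adjustment over 14320 genes and a threshold of 0.05. A standard error is the log2 fold change over the root of its F statistic. Correlations used log2 CPM with a prior count of 2. Alternatives were DESeq2 1.42.0, limma 3.58.1 voom with sample weights, other scalings and filters, an airway covariate, the replicate block and omitted libraries. The fit was tested on simulated data.

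The members and gene lists were chosen with earlier results of these data known. Values are given for the members, for the 4 genes of smallest p and the defining genes of each list, and for the 6 genes most like Cpa3. Mcpt1l1, the count ratios and the extremes of single libraries were singled out after their values were seen. Listed genes with no row of that name, such as Mcpt2, Mcpt8 and Foxj1, were not analysed here. No 2 libraries of a group were alike within counting noise (lowest chi-square over its degrees of freedom 9.46). Poisson intervals cover counting error only.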

Additional observations from a re-analysis of the deposited data

Results flagged for a closer look

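Of 18 sets of 5 libraries (9 genes in 2 groups), 2 held a library far from the rest by Dixon's test at its 95% critical value of 0.71, where chance flags about 1 in 20. Tpsb2 stood at 0.904 CPM in XBS 1 against 4.49 to 5.31 CPM in the other XBS libraries, a gap of 0.815 of the range. Kit stood at 224.3 CPM in XBS 2 against 139.7 to 155.3 CPM in the other XBS libraries, a gap of 0.816 of the range.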

How the results depend on the processing

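The count of members past the threshold was 0 in all 19 alternatives and at an adjusted p under 0.1, and the smallest adjusted p among members was 0.354, without MOD 1, where all 9 passed the filter. Cma1, Tpsb2 and Kit kept a negative log2 fold change in all 19, whereas the sign of the other 5 tested members changed in at least 1. With limma voom and sample weights the log2 fold change was -0.57 for Cpa3, -0.10 for Mcpt1, -0.015 for Ms4a2 and -0.18 for Fcer1a. Leaving out 1 library at a time gave -0.31 (without XBS 5) to 0.32 (without XBS 1) for Cpa3, -0.045 to 0.31 for Ms4a2 and -0.0060 to 0.48 for Fcer1a (without the same libraries, in that order), and -0.060 (without XBS 4) to 0.17 (without XBS 3) for Hdc. The cause was not tested.

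The number of the replicate did not pair libraries: same-numbered libraries had r from -0.125 to 0.329 and matched best in 1 of 5. With the replicate block, 0 members passed, their median log2 fold change was -0.05, Cpa3 stood at -0.26, and 1 gene of all tested passed in place of 11. Signalling genes past the threshold numbered 4 with DESeq2 and 0 in the other settings; these settings for them were chosen after seeing the data, as were the correlations without XBS 1. Tpsab1 and Fcer1a had as few as 2 and 5 counts, and small differences in them were not detectable here. Nor were they in Cpa3 and Mcpt1, which had up to 262 and 285 counts. Their SEs were 0.61 and 0.51, against 0.46 for Fcer1a.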
